A study of Rattus with 6 samples.

Results

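The regions described here are the long last exon rows of genes expressed in RC-4B/C, a rat pituitary adenoma cell line. A gene was taken where the table of exon values held 5 or more rows for it, its rows were ordered along the strand, and its last row was kept where that row was 1000 bases or longer. The rule took 202 of 8209 genes with 5 or more rows, and left 8007 genes whose last row was shorter. The whole table held 118147 rows of 12801 genes. Cells had been treated with ASA (acetylsalicylic acid, aspirin) or with DMSO (dimethyl sulfoxide, the solvent control), with 3 libraries each. Both groups are this 1 line, and the labels name no engineered change. The labels used here give no dose, duration or culture for any library, so the spread between libraries may be technical. Replicate numbers follow the order of deposit and pair no library of one group with a library of the other.

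These rows were proposed as mostly 3′ untranslated sequence, and the table goes against that. Where every numbered row of a gene was listed, the row lengths added up to a multiple of 3 bases in 7172 of 7525 genes (95.3%), as a coding sequence does. Among the long last rows the same held for 122 of 130 genes (93.8%). The rows are therefore read here as coding parts of exons, and the 3′ untranslated regions of these genes were not analysed here. Each region is called a long last coding row below.

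In a vertebrate gene the last coding exon usually holds the stop codon, and the untranslated region and polyadenylation site often follow in the same exon. A gene can end in more than one last exon, by alternative splicing or by use of an earlier polyadenylation site, and then its last exon can change in level while the rest of the gene does not. Some protein families are encoded largely in one long last exon. The zinc finger arrays of the C2H2 zinc finger proteins, DNA-binding repressors and activators, are a textbook case.

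Libraries held about 66493000 to 94487000 reads in the listed rows, and the lowest depth was that of ASA replicate 2. That library stood apart from the other 5. It had 497 rows at 0 reads against 4 to 13 elsewhere, and 5.44% of its reads were mitochondrial where other libraries had 2.65% to 3.22%. Limma's library quality weight for it was 0.0556 against 1.43 to 2.34. These weights were estimated from the last row minus the median other row of each gene. Counts of calls, and the differences of many single genes, are therefore given with and without it. Values of single genes include it unless stated otherwise. Markers of the labelled pituitary cell type were present. Prl, prolactin, had a median row of 14210 to 68920 reads per kilobase per 1000000 reads (RPKM) over the 6 libraries, and Pou1f1, the lineage transcription factor, had 553 to 772. Cga lay at 1.31 to 30.6, Pomc at 0.924 to 2.62, and the markers Gh1, Tshb, Lhb, Fshb, Ptprc, Csf1r, Col1a1 and Pecam1 had no rows.

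Long last coding rows had a median length of 1444 bases, and the shortest, of 1002 bases, was that of Nova1, a neuronal splicing regulator. Short last rows had a median of 132 bases. The long last row held a median of 54.1% of the listed coding length of its gene (13.7% to 96.2% over 130 genes with every row listed), against 9.0% for short last rows. Members lay on all 21 chromosomes with rows, 96 of 202 of them on the plus strand. In 199 of 202 genes the last listed row was also the last in the table's own row numbering. The exceptions were Zfhx3, Zfp318 and Zfp84. No other listed row overlapped a long last row. Symbols that start with Zfp, Zkscan or Zscan, given to zinc finger genes, made up 29 of 202 members (14.4%) and 63 of 8007 genes with a short last row (0.787%). Mean RPKM over the 6 libraries had a median of 10.8 for long last rows and 33.6 for short ones. In reads the order was reversed, with a median of 1359 reads in a long last row and 388 in a short one.

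The long last row was lower than the rest of its own gene in nearly every case. The measure used throughout is the last-minus-rest value, the log2 RPKM of the last row minus the median log2 RPKM of the gene's other rows in the same library. Its median over the 202 genes was -0.46, -0.43 and -0.49 in ASA replicates 1, 2 and 3, and -0.50, -0.42 and -0.52 in DMSO replicates 1, 2 and 3. The mean over libraries was -0.46 ± 0.03 in ASA and -0.48 ± 0.06 in DMSO (SD, n = 3), so the groups overlapped. In the DMSO libraries 189 of 202 members (93.6%) averaged below 0. Short last rows had library medians of 0.09 to 0.26, the highest of them in ASA replicate 2.

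This level followed row length and was not particular to the last position. The mean of library medians was 0.55 for last rows under 100 bases, 0.09 from 100 to under 200 bases, -0.15 from 200 to under 500 and -0.38 from 500 to under 1000. It was -0.47 for the 157 members under 2000 bases, -0.47 for the 37 from 2000 to under 4000 and -0.46 for the 8 of 4000 or more. Rows of 1000 bases or more that were not last, in 527 genes with a short last row, had -0.68. Among these, 136 first rows had -0.77 and 391 rows that were neither first nor last had -0.64. A last-minus-rest value is thus compared below only with the same row in another library. The genes in each class differ, and these medians were not tested.

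**Figure D1:**
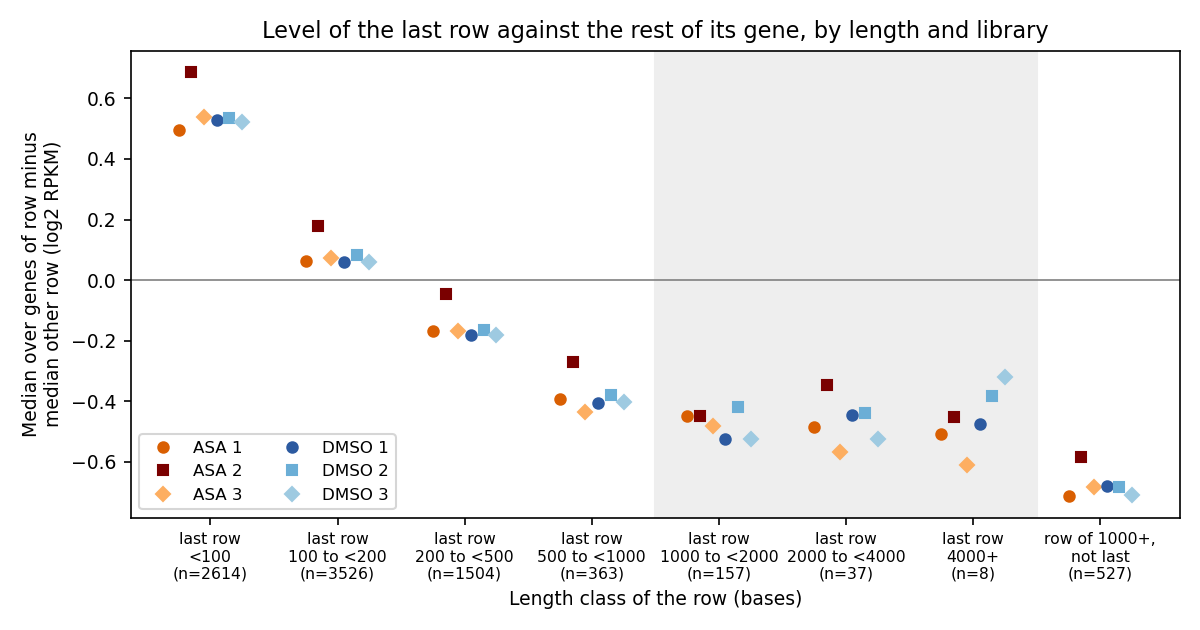
Median over genes of a row's log2 RPKM minus the median log2 RPKM of the other rows of its gene, by length class of the row, with 1 point per library (ASA in red and orange, DMSO in blue; n is the number of genes). Long last rows (shaded) lie between -0.61 and -0.32 in all 6 libraries, short classes fall with length, and ASA replicate 2 is the highest library in each of the 4 classes under 1000 bases.

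Members at the ends of this range show what the measure holds. The lowest DMSO means were -4.52 for AABR07069473.1, -2.41 for Zkscan7 and -2.22 for Zfp84. AABR07069473.1, a predicted gene, had 0.237 to 0.360 RPKM in its last row and 4.21 to 7.57 in the median other row. The highest DMSO means were 1.17 for Arhgap11a, a GTPase-activating protein of dividing cells, and 1.05 for Il4i1, an amino acid oxidase. Sphk2, a sphingosine kinase, had 0.82, and the giant scaffold gene Ahnak 0.72. Arhgap11a kept a high value in both groups, with 0.95, 1.34 and 1.1 in the ASA and 0.99, 1.45 and 1.06 in the DMSO libraries.

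No long last coding row passed the test for a change against the rest of its gene. The comparison asks whether ASA moved the level of the last exon apart from the level of the gene, as a switch of last exon would. In limma on the last-minus-rest values (Benjamini-Hochberg adjusted p under 0.05, two-sided), 0 of 199 tested members passed, against 0 of 8205 genes tested, a background of 0%. The 3 genes not tested had a mean under 0.5 RPKM (AABR07069473.1, the Wnt pathway gene Apc2 and the glutamate receptor gene Grin2d). An unadjusted p under 0.05 was reached by 5 of 199 members (2.51%), with a background of 3.29% (270 of 8205 genes). The smallest adjusted p was 0.774 among members and 0.0729 among all genes. Groups did not overlap in 10 members higher in ASA (background 6.41%) and in 17 lower (background 5.83%).

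The ASA-minus-DMSO differences in last-minus-rest centred on 0. They ran from -1.18 to 1.10 with an interquartile range of -0.22 to 0.25, and 100 were positive and 99 negative. Only AC123494.1 (1.10), Il4i1 (-1.12) and Zfp287 (-1.18) lay beyond 1 in size, and these are named after their values were seen. The 95% interval of the difference stayed within 1 on the log2 scale, a change of 2-fold, in 138 of 199 members (69.3%), reaching a median of 0.54 to either side. In the other members the interval reached past 1 in at least 1 direction, so a change of that size was not excluded at this spread. Without ASA replicate 2 the interval stayed within 1 in 194 of 199 members (97.5%), reaching a median of 0.28 to either side. Limma then still called 0 members, against 2 of 8205 genes (0.0244%), and 18 members (9.05%) had an unadjusted p under 0.05 against a background of 7.53%. The smallest adjusted p of a member was then 0.242, for Foxm1. With limma's library quality weights 0 members passed, against 3 of 8205 genes (0.0366%).

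Scatter of the long last rows was concentrated in ASA replicate 2. Each ASA library was set against the mean of the 3 DMSO libraries, and each DMSO library against the mean of the other DMSO libraries. In ASA replicate 2, 54 of 202 members (26.7%) deviated by more than 1 in last-minus-rest, 29 upward and 25 downward. In the other 5 libraries 0 to 2 members did. The median SD of last-minus-rest was 0.10 among DMSO libraries, 0.38 among ASA libraries and 0.11 between ASA replicates 1 and 3. Short last rows had 0.11, 0.37 and 0.11. Their share past 1 in ASA replicate 2 was 24.1%. In that library the median deviation was 0.0009 for the long last rows and 0.13 for short ones. Long rows that were not last had 0.12.

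**Figure D2:**
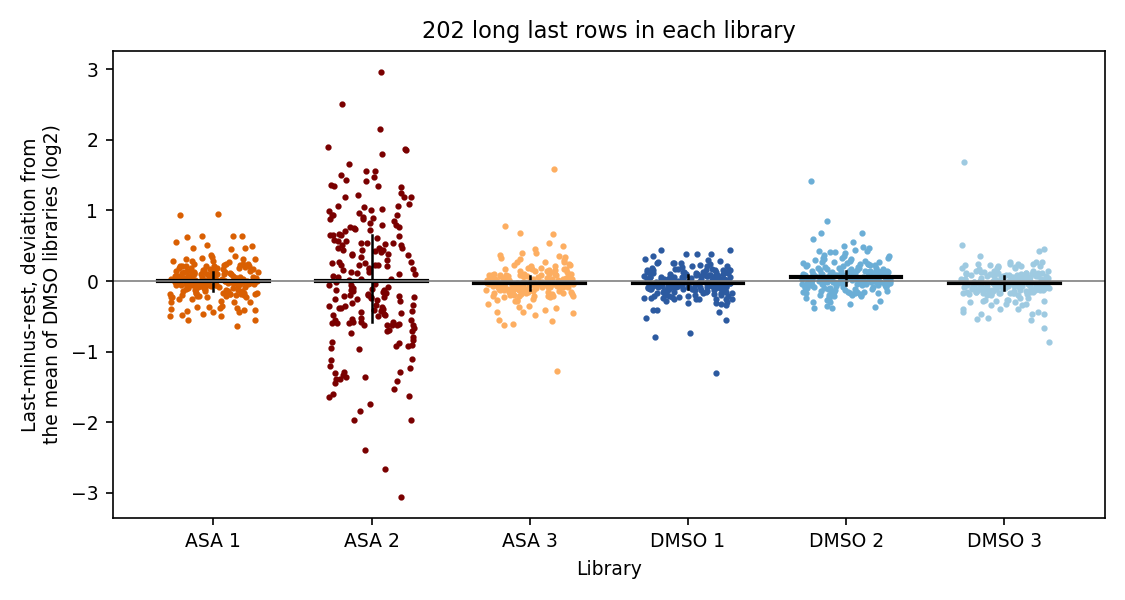
Last-minus-rest value of the 202 long last rows in each library, as the deviation in log2 from the mean of the DMSO libraries (for a DMSO library, of the other DMSO libraries). Each point is 1 gene, the thick line the median and the thin line the interquartile range. ASA replicate 2 spreads from -3.05 to 2.96, while its median stays at 0.0009.

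Of the 10 genes with the widest deviations in ASA replicate 2, 5 in each direction, each deviated less in the mean of ASA replicates 1 and 3. Zfp287, a zinc finger gene, deviated by -3.05 in ASA replicate 2 and by -0.25 in the mean of ASA replicates 1 and 3. Its last row had 18 reads in ASA replicate 2 and 355 to 564 in the other libraries. Plppr4, a phospholipid phosphatase-related membrane protein of neurons, deviated by -2.66 against -0.01, and Frmpd4, a postsynaptic scaffold, by -2.40 against -0.005. Plppr3, related to Plppr4, and the zinc finger gene Zfp84 deviated by -1.97 and -1.96, and by -0.43 and 0.38 in the mean of ASA replicates 1 and 3. Upward deviations were 2.96 in AC123494.1, 2.51 in the zinc finger gene Mzf1, 2.15 in Ehhadh, a peroxisomal enzyme of fatty acid oxidation, 1.90 in Raph1, an actin-regulating adaptor, and 1.88 in the histone acetyltransferase gene Kat6b. In ASA replicates 1 and 3 these 5 had mean deviations of 0.16, 0.01, 0.17, 0.20 and 0.02. Ehhadh had 6 reads in its last row in ASA replicate 2 and 114 to 154 in the others, so counting error alone is wide there.

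Row by row, ASA replicate 2 was uneven along Polr2a and Dido1 rather than shifted at the last row alone. Polr2a, the largest subunit of RNA polymerase II, and Dido1, a chromatin-associated protein, are shown as examples chosen after their values were seen. Across the 29 rows of Polr2a, ASA replicate 2 lay between -3.85 (row 23) and -0.31 (the last row) relative to the DMSO mean, and its last 5 rows stood at -1.60, -1.14, -0.76, -0.55 and -0.31. ASA replicates 1 and 3 stood at -0.33 and -0.60 at the last row. In Dido1 the deviation of ASA replicate 2 went from -2.45 at row 1 to -6.01 at row 15, the last, where it had 50 reads against 3334 to 5941 in the other libraries. Its last-minus-rest value there was -2.09 against -0.95 to -0.58. Not every gene was like these. In Frmpd4, ASA replicate 2 had 15.3 RPKM at the median other row, against 16.4 and 18.7 in ASA replicates 1 and 3. At the last row of Frmpd4 it had 1.42 against 8.65 and 8.33. Coverage along the other rows was also compared. With the other rows split at the middle, the median over members of their 3′ part minus their 5′ part was 0.07 in ASA replicate 2 and 0.08 to 0.14 in the other libraries. In genes with a short last row ASA replicate 2 was the highest, at 0.15 against 0.08 to 0.11.

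**Figure D3:**
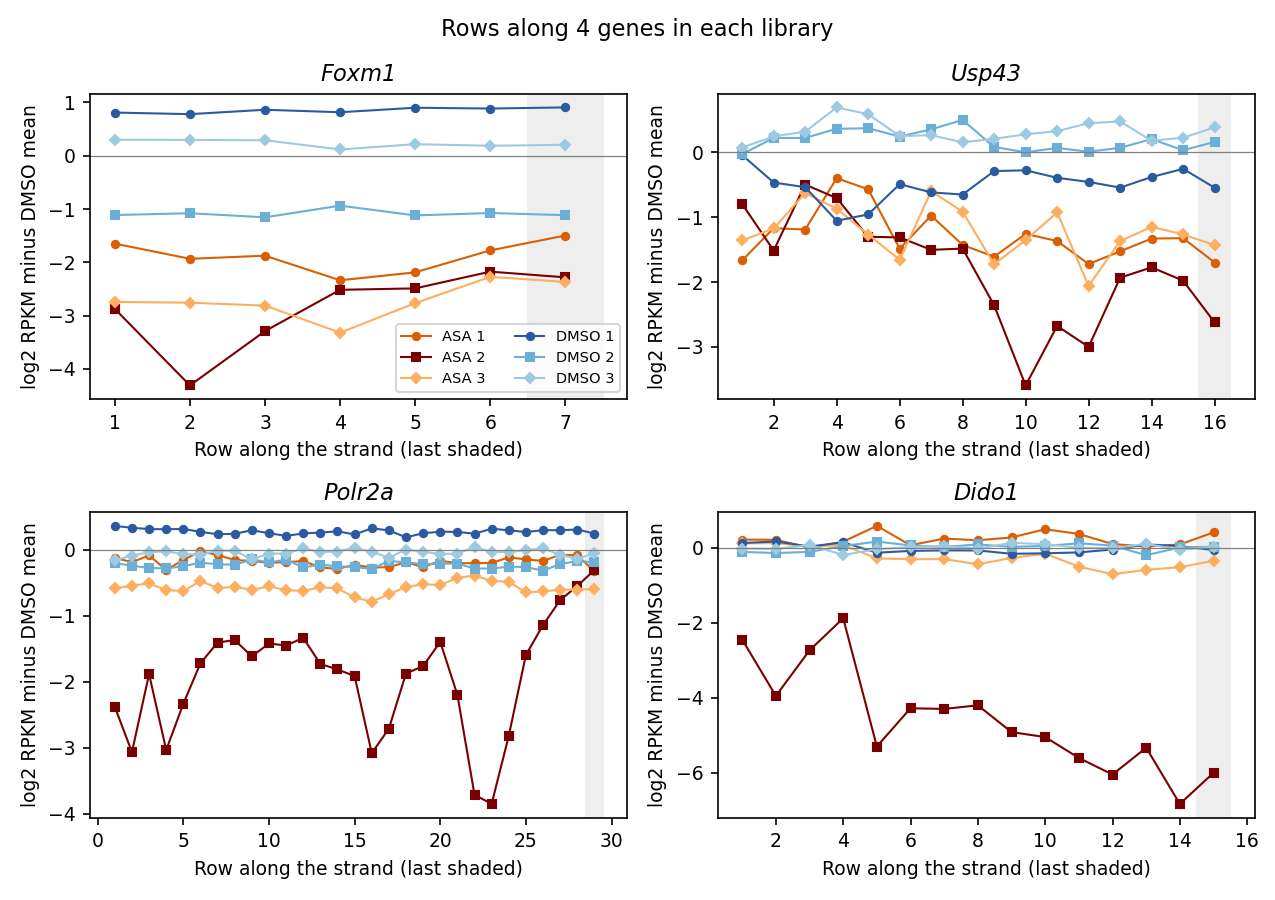
log2 RPKM of every row along Foxm1, Usp43, Polr2a and Dido1, minus the DMSO mean of that row, with 1 line per library and the last row shaded. ASA replicate 2 varies from row to row in all 4 genes, most widely in Dido1 where it ends at -6.01, while ASA replicates 1 and 3 and the DMSO libraries run nearly level in Polr2a.

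With no member past the threshold, the genes named next are the 6 in each direction with the smallest unadjusted p, no overlap between the groups, a mean of at least 1 RPKM in the last row and in the median other row, and a symbol that is not a placeholder. Each had an adjusted p of 0.774 in limma, so none of these differences is a call. LOC691170 (-0.83, unadjusted p = 0.0504) met the conditions on overlap and RPKM and was left out for its placeholder symbol. Among those higher in ASA, Foxm1, a transcription factor of the G2 and M phases of the cell cycle, came first. Its last row spans 161694123 to 161695312 of chromosome 4 (Rnor_6.0, plus strand) and holds 52.1% of the listed coding length. The last row had 5.25, 3.05 and 2.87 RPKM in ASA replicates 1, 2 and 3 and 27.8, 6.84 and 17.1 in DMSO replicates 1, 2 and 3. The median other row had 5.53, 3.19 and 2.95 in ASA and 42.2, 12.1 and 28 in DMSO. Both measures were thus lower in every ASA library, and DMSO replicate 2 was the lowest of its group.

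Last-minus-rest of Foxm1 was -0.07, -0.06 and -0.04 in ASA and -0.60, -0.82 and -0.71 in DMSO, with no overlap. The difference was 0.65 ± 0.14 (SE; 95% interval 0.32 to 0.98, unadjusted p = 0.00245), and 0.65 without ASA replicate 2. It depended on which rows stood for the rest of the gene. Against the mean of all other rows it was 0.51, and against the median of the 3 rows just upstream 0.05. Relative to the DMSO mean the ASA libraries stood at -2.34, -2.52 and -3.32 at row 4 of 7, at -1.78, -2.17 and -2.27 at row 6 and at -1.5, -2.28 and -2.37 at the last row.

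The other 5 genes higher in ASA were of mixed function. Sobp, a nuclear zinc finger protein, had last-minus-rest values of -0.26, 0.37 and -0.67 in ASA and -0.74, -0.83 and -0.89 in DMSO (difference 0.63 ± 0.27 SE). Its value in ASA replicate 3 lay close above DMSO replicate 1, and the difference was 0.35 without ASA replicate 2. Lgr4, a receptor for R-spondins in Wnt signalling, had -0.42, -0.12 and -0.38 against -0.60, -0.60 and -0.86 (0.38 ± 0.16 SE, and 0.28 without ASA replicate 2). Pnn, a splicing-associated protein of nuclear speckles and desmosomes, had 0.26, 0.52 and 0.22 against 0.10, 0.06 and -0.03 (0.29 ± 0.15 SE, and 0.20 without ASA replicate 2). Sphk2 (0.72 ± 0.40 SE) and Hcn4, a pacemaker cation channel (0.78 ± 0.45 SE), owed most of their difference to ASA replicate 2. Without it they stood at 0.25 and 0.23.

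Among the 6 lower in ASA, Il4i1 differed most. Its last row (100835525 to 100836674 of chromosome 1, plus strand) had 3.68, 1.01 and 1.99 RPKM in ASA and 4.32, 3.20 and 3.84 in DMSO, from 77 to 469 reads a library. Last-minus-rest was 0.50, -0.48 and -0.22 in ASA and 0.52, 1.42 and 1.22 in DMSO. ASA replicate 1 and DMSO replicate 1 thus lay side by side. The difference was -1.12 ± 0.34 (SE; 95% interval -1.93 to -0.31, unadjusted p = 0.0142), -0.91 without ASA replicate 2 and -0.16 against the 3 rows just upstream. The table listed 5 of the 8 numbered rows of this gene.

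Usp43, a deubiquitinating enzyme, differed at the last row in much the same way whichever rows stood for the rest. Its last row (54406983 to 54408055 of chromosome 10, minus strand) had 3.35, 1.77 and 4.04 RPKM in ASA and 7.46, 12.2 and 14.2 in DMSO. The median other row had 4.73, 3.45 and 5.13 against 8.45, 13.1 and 13.8. Last-minus-rest was -0.50, -0.96 and -0.35 in ASA and -0.18, -0.11 and 0.04 in DMSO, a difference of -0.52 ± 0.20 (SE; 95% interval -0.999 to -0.041, unadjusted p = 0.0373). It was -0.50 against the 3 rows just upstream and -0.34 without ASA replicate 2.

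Fhdc1, a formin that binds actin and microtubules, had -0.71, -0.65 and -0.78 in ASA and -0.09, -0.05 and -0.54 in DMSO. The difference was -0.49 ± 0.18 (SE; unadjusted p = 0.0322), with -0.52 without ASA replicate 2 and -0.30 against the 3 rows just upstream. Plppr3 stood at -0.94 ± 0.44 (SE) and at -0.43 without ASA replicate 2, whose value was -2.66. Ppl, the desmosomal plakin periplakin, had -0.36 ± 0.18 (SE), which was -0.21 without ASA replicate 2 and turned to 0.24 against the 3 rows just upstream. Pdzd8, a lipid transfer protein of membrane contact sites, had -0.27 ± 0.14 (SE). The fifth member with an unadjusted p under 0.05, beside Foxm1, Il4i1, Fhdc1 and Usp43, was Zkscan7, a zinc finger gene (0.93 ± 0.39 SE, unadjusted p = 0.0499). Its groups overlapped, with -1.48, -2.14 and -0.82 in ASA and -2.55, -1.96 and -2.72 in DMSO, so the rule did not take it and it is named after its value was seen.

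**Figure D4:**
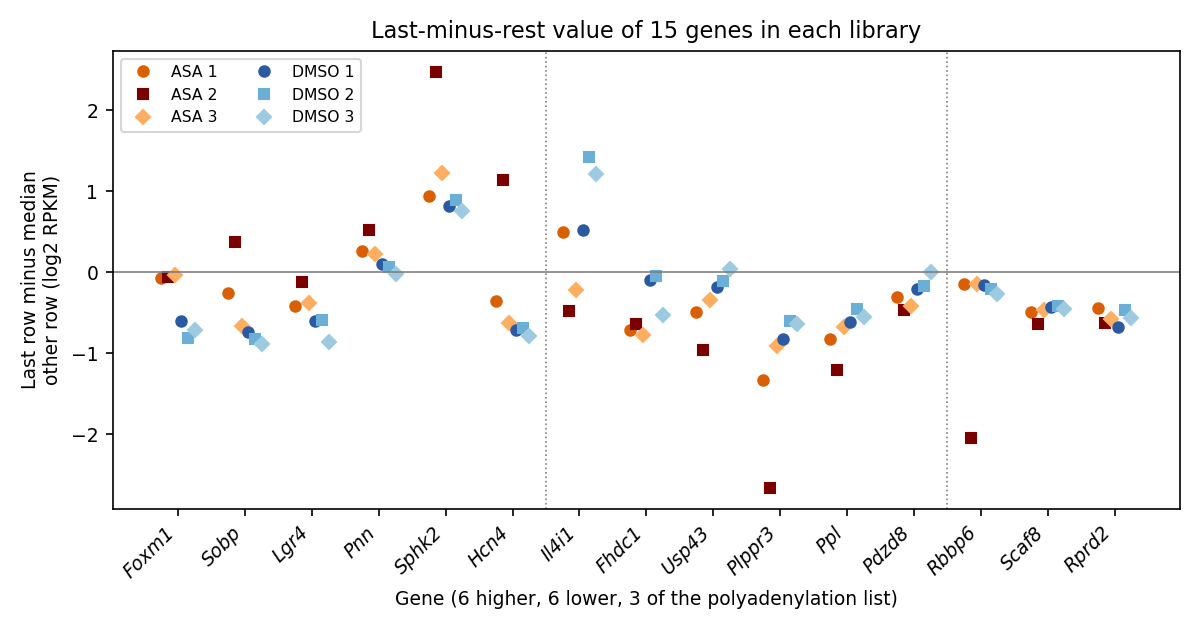
Last row minus median other row, in log2 RPKM, for the 12 genes taken by smallest p and the 3 members of the cleavage and polyadenylation list, with 1 point per library. The groups are apart in the first 12 by the way they were chosen, Foxm1 most evenly, and ASA replicate 2 is the ASA point farthest from the DMSO mean in every gene shown except Foxm1, Fhdc1 and Rprd2.

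Genes of the machinery that cuts and polyadenylates transcripts could be members themselves. Of 28 genes of that list 26 had 5 or more rows, and 3 had a long last coding row. Rbbp6, a scaffold of the cleavage complex that is also a ubiquitin ligase, had last-minus-rest values of -0.14, -2.05 and -0.15 in ASA and -0.15, -0.21 and -0.27 in DMSO. Its difference of -0.57 ± 0.51 (SE) was 0.06 without ASA replicate 2, in which the last row had 71 reads against 2616 to 4751 elsewhere. Scaf8 and Rprd2, which bind the C-terminal domain of RNA polymerase II, had differences of -0.10 ± 0.13 and 0.02 ± 0.14 (SE). None of the 26 genes passed the test of the median other row, in either direction, where the background was 8.19% of 8205 genes. The list was not tested as a set. Ccnd1, Cdc42, Timp2, Nudt21, Cpsf6, Pcf11, Elavl1, Dicer1 and Tnrc6b, known for alternative 3′ ends or for acting on them, had last rows of 87 to 322 bases and were not members. Ccnd2 and Vma21 had fewer than 5 rows.

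A few genes with long last coding rows changed in level at the median other row, a share no higher than over all genes. At the median other row, 12 of 199 members (6.03%) passed limma's test, 6 higher and 6 lower in ASA. The background was 8.19% of 8205 genes, 4.81% higher and 3.38% lower. At the last row itself 4 members passed, 2 in each direction, with a background of 4.44% (2.74% higher and 1.69% lower). All 4 were among the 12, and each of the 12 had the same sign at the last row. Both measures come from the same genes and libraries, and the share with a shared sign over all called genes is not given. The shared signs are thus not used as support. Their last-minus-rest differences ran from -0.89 to 0.65, each with an adjusted p of 0.774. Levels here come from whole cultures, in which fewer cells of a type and less RNA per cell cannot be told apart. The 12 genes are named after their values were seen.

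Of the 6 that fell, 3 act in cell division. Foxm1 was 6.5-fold lower at the median other row (log2 difference -2.70 ± 0.49 SE, adjusted p = 0.0256). Cdca2, a chromosome-associated regulator of protein phosphatase 1, had 4.12, 2.82 and 3.43 RPKM in ASA and 38.9, 7.08 and 26.5 in DMSO at the median other row, 5.69-fold lower (adjusted p = 0.045). Hjurp, the chaperone that loads the centromeric histone CENP-A, had 6.48, 5.21 and 4.49 against 50.1, 11.7 and 26.5, 4.69-fold lower (adjusted p = 0.0402). In all 3 genes DMSO replicate 2 was nearest to the ASA libraries, and the groups did not overlap. At their last rows Foxm1, Cdca2 and Hjurp were 4.14-fold, 8.11-fold and 5.57-fold lower (adjusted p = 0.0697, 0.0503 and 0.0501). In log2 these differences were -2.05, -3.02 and -2.48, and without ASA replicate 2 they were -1.93, -2.50 and -2.56. The last row of Cdca2 had 60 reads in ASA replicate 2.

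Htatsf1, a splicing and elongation factor on chromosome X, fell at both measures. Its last row had 32.6, 10.4 and 42.9 RPKM in ASA and 89.1, 178 and 134 in DMSO, 5.26-fold lower (adjusted p = 0.0477). The median other row was 3.81-fold lower (adjusted p = 0.0204). Cacna1h, the pore subunit of a low-voltage-activated T-type calcium channel, had 6.45, 4.11 and 4.51 RPKM in its last row in ASA and 12.3, 22.7 and 12.9 in DMSO. That was 3.11-fold lower (adjusted p = 0.0497), beside 2.71-fold at the median other row (adjusted p = 0.0412). Usp43 was 2.63-fold lower at the median other row (adjusted p = 0.0418) and 3.78-fold at the last row (adjusted p = 0.0514). In log2 the last-row differences of Htatsf1, Cacna1h and Usp43 were -2.39, -1.64 and -1.92. Without ASA replicate 2 they were -1.78, -1.505 and -1.57.

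Naglu, a lysosomal enzyme that degrades heparan sulphate, rose most of the 6 that rose. Its last row (88985465 to 88986666 of chromosome 10, plus strand) had 75.7, 137 and 121 RPKM in ASA and 26.2, 40.2 and 28.6 in DMSO, 3.47-fold higher (adjusted p = 0.0302). The median other row had 125, 251 and 185 against 38.4, 62.0 and 37.0, 4.04-fold higher (adjusted p = 0.0174). Ssh1, a phosphatase that activates the actin-severing protein cofilin, was 2.80-fold higher at the last row (adjusted p = 0.0437) and 2.35-fold at the median other row (adjusted p = 0.0334). Nfe2l2, the transcription factor NRF2 of the oxidative stress response, had 155, 208 and 205 RPKM at the median other row in ASA and 98.0, 84.8 and 96.1 in DMSO, 2.02-fold higher (adjusted p = 0.0278). Phlpp1, a phosphatase of the kinase AKT, was 2.15-fold higher at the median other row, and Ddi2, a protease that activates the transcription factor NRF1, 1.94-fold (adjusted p = 0.0429 and 0.0349).

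Plppr4 showed how far a single library could part the last row from its gene. At the median other row it had 11.8, 11.2 and 12.3 RPKM in ASA and 4.38, 3.02 and 2.72 in DMSO, 3.56-fold higher (adjusted p = 0.0202). At the last row it had 10.1, 1.42 and 9.06 in ASA and 3.63, 2.48 and 2.06 in DMSO (adjusted p = 0.458). Only ASA replicate 2 was low there, with 125 reads. Without that library the last row was 1.86 higher on the log2 scale (adjusted p = 0.0159), beside 1.87 at the median other row.

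**Figure D5:**
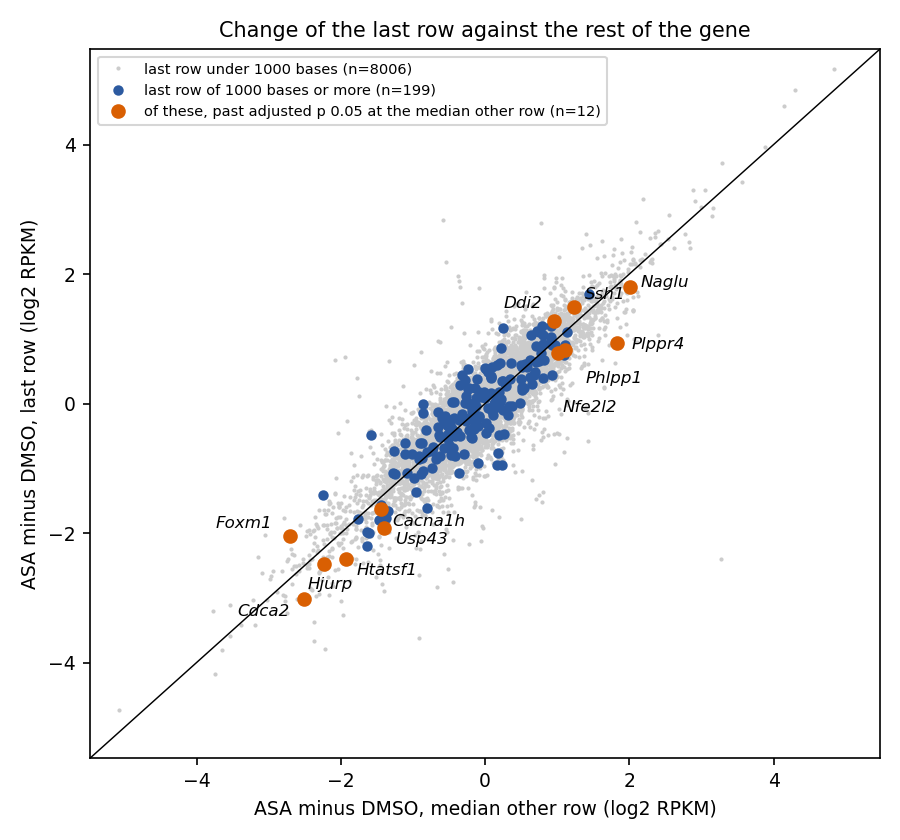
ASA-minus-DMSO difference in log2 RPKM at the last row against that at the median other row, with 1 point per gene: 199 tested long last rows in blue, the 12 past the threshold at the median other row in orange, and genes with a short last row in grey. Points on the diagonal changed alike at both measures, and Plppr4 and Foxm1 are the called genes farthest from it.

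The number of these calls moved with single libraries. At the median other row it was 22 without ASA replicate 1, 33 without ASA replicate 2 and 7 without DMSO replicate 2. It was 0 when ASA replicate 3 or either of DMSO replicates 1 and 3 was removed, and across these 6 fits the adjusted p of the 12 genes ranged from 0.00942 to 0.221. Of these 6 fits, the share over all genes is given only for that without ASA replicate 2. The other counts thus say nothing of members against other genes. All 12 were among the 33 called without ASA replicate 2, of which 25 were higher and 8 lower (background 21.5%, 13.8% higher and 7.65% lower). Pogk, a transposase-derived gene with a KRAB repressor domain, was 3.07-fold higher there at the median other row, and Zfp483 2.97-fold (adjusted p = 0.0123 and 0.0142). The desmosomal linker Dsp and the interleukin-4 receptor gene Il4r were 2.17-fold and 2.15-fold higher (adjusted p = 0.018 and 0.0237). Rbbp6 was 1.58-fold and Lgr4 1.56-fold lower (adjusted p = 0.0267 and 0.0373). In that fit too, all 33 had the same sign at the last row, again with no share over all called genes. At the last row 27 members passed (background 17.3%). With limma's quality weights 155 members (77.9%) passed at the median other row and 117 (58.8%) at the last row, with backgrounds of 80.3% and 67.0%. The weights were estimated anew for each of these measures and are not given here. Without both libraries numbered 2 there were 44 (22.1%) and 32 (16.1%), with backgrounds of 27.0% and 23.5%. These names were chosen after their values were seen.

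Grouped by what their proteins do, in groups drawn up after the values were seen, the members are described by medians and counts, with no test of a group. Over all 199 tested members the median difference at the median other row was -0.14, beside -0.07 over all 8205 genes, and without ASA replicate 2 it was 0.15 beside 0.08. The 29 zinc finger genes had a median last-minus-rest difference of -0.02 (-1.18 to 0.93). At the median other row they had a median difference of -0.08, with 0 called. Without ASA replicate 2 it was 0.36, with 5 higher (Zfp64, Zfp275, Zfp318, Zfp316 and Zfp483) and 0 lower. Over all 8205 genes 13.8% were higher and 7.65% lower in that fit, and 4.81% and 3.38% with all libraries. The 18 chromatin regulators, such as the remodelling subunits Arid1a and Arid1b and the acetyltransferase Crebbp, had 0.05 in last-minus-rest and -0.42 at the median other row, with 0 called, and -0.08 there without ASA replicate 2. Among them the DNA demethylation enzymes Tet2 and Tet3 had last-minus-rest differences of 0.38 ± 0.26 and 0.18 ± 0.29 (SE), and 0.13 and -0.11 without ASA replicate 2.

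The 6 genes grouped under cell division had a median of -0.18 in last-minus-rest and -2.00 at the median other row, where 3 fell, Foxm1, Cdca2 and Hjurp. Over all genes tested 3.38% fell and 4.81% rose at that measure. Gas2l3 and Mcm9, also grouped here, were not called, and Gas2l3 had -0.58 at the median other row (adjusted p = 0.494). Arhgap11a, of the same group, had -1.76 ± 0.53 (SE) at the median other row (adjusted p = 0.0768) and -1.79 ± 0.43 at the last row (adjusted p = 0.0546), with a last-minus-rest difference of -0.02 ± 0.20. The 11 kinases and phosphatases had 0.05 and 0.52, with Ssh1 and Phlpp1 higher. The 10 RNA processing genes had -0.12 and -0.70, with Htatsf1 lower, and -0.36 at the median other row without ASA replicate 2. Among 9 ion channel genes, 8 of them tested, only Cacna1h passed, and the sodium channel gene Scn2a had a last-minus-rest difference of -0.09. The class 6 semaphorins, membrane-bound guidance molecules, had positive last-minus-rest differences of 0.15 in Sema6c, 0.23 in Sema6a and 0.28 in Sema6d, which were -0.01, 0.07 and 0.04 without ASA replicate 2.

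Gene lists drawn up for this tissue and treatment held few of these genes. Of 11 lists, only the cleavage and polyadenylation list had members with a long last coding row. The G2/M list, for instance, had 34 genes with 5 or more rows, of which 27 fell at the median other row, none rose and none was a member. Members of a function can lie outside its list. Foxm1, Cdca2 and Hjurp, which act in cell division, were not on the G2/M list. Cholesterol and fatty acid synthesis had 33, of which 12 fell, 1 rose and none was a member. Over all 8205 genes tested 3.38% fell and 4.81% rose.

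Genes nearest the length limit had differences of both signs on each side, and they are too few to show whether the limit marks a border. Just under the limit lay Nlgn2 (994 bases), Lima1 (997), Brinp2, AABR07068341.1 and Plekho2 (999 each), with ASA-minus-DMSO differences in last-minus-rest of 0.05, -0.40, 0.05, 0.81 and 0.41. Just above it lay Nova1 (1002 bases), Maml2 (1007), Scn2a (1012), Igtp (1014) and Map6 (1015), with -0.25, 0.09, -0.09, -0.40 and 0.47.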

How the data were processed

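Polyadenylated RNA of 6 RC-4B/C samples (3 ASA, 3 DMSO) was sequenced from directional libraries, per the labels' protocols. The authors deposited 1 table of log2 RPKM by exon and library. The tools in the submitters' processing notes are edgeR 3.26.8, Bowtie2, TopHat2 2.1.0, cutadapt 1.14 and Trim Galore 0.4.1, with the build Rnor_6.0. How reads were counted, with which annotation and whether by strand, is not given in the sources used here, so reads of overlapping antisense genes and near-identical copies (the zinc finger genes among them) are uncertain. The lowest values sit on a constant of 0.00292 reads per 1000000, or 0.25 read at the mean depth of about 85761000 reads. Without it, 96.7% to 97.7% of values in rows under 200 reads were whole reads within 0.05 read.

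Per gene and library, the last row, the median log2 RPKM of the other rows and their difference were fitted with limma 3.58.1 in R 4.3.3 (two-sided, moderated variances with a trend on the mean), ASA against DMSO without covariates. The fit covered the 8205 genes with 5 or more rows and a mean of at least 0.5 RPKM in both measures, with Benjamini-Hochberg adjustment over all of them at 0.05. Fold changes come from differences of mean log2 RPKM, so the added constant understates changes of rows with few reads. The fit was also run on simulated data in which all libraries shared the same spread per gene, unlike ASA replicate 2 here. The outcome of that run is not given and is not used as support. No count model was run, since the deposited values are not counts. Intervals are 95% and come from limma. Genes were named by the rule given with them, and also from fixed genes and lists where these were members. The members, the lists and the rule were chosen with earlier results of these data known. No genome or sequence table of this build was used here, so no sequence is shown. The alternatives tried were other summaries of the remaining rows, pseudocounts, filters, centring, variance models, library weights, length and row limits, and each library left out.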

Additional observations from a re-analysis of the deposited data

How the results depend on the processing

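No alternative gave a long last coding row past the threshold in last-minus-rest: the count was 0 under all 23 alternatives, which included other summaries of the remaining rows, pseudocounts of 0.1 and 1, filters, variance models, library weights and each library left out. The 3 alternatives that took members by length, row number or place in the numbering used the same fit, so their count was bound to be 0. Leaving out rows that overlap the last row changed no member's values. The number of members called at the median other row was 12 (background 8.19%), and became 19 with values centred per library. It was 155 with library quality weights (background 80.3%) and 44 without both libraries numbered 2 (background 27.0%, an alternative chosen after seeing the data). It was 0 to 33 when a single library was left out. At the last row the number was 4 (background 4.44%), with 7 and 8 at pseudocounts of 0.1 and 1, and 2 with a robust variance. It was 117 with quality weights (background 67.0%), 32 without both libraries numbered 2 (background 23.5%) and 0 to 27 with a single library left out. Counts printed without a background are not set against all genes. The difference of the members' library medians was 0.024 over tested members and 0.017 over all members. Across the alternatives it ran from -0.034 in members with 10 or more rows to 0.066 against the mean of the other rows, with -0.024 after centring. Signs in last-minus-rest were followed across alternatives for the 12 genes taken by smallest p and the 3 polyadenylation list members. They turned for 4 uncalled genes among these. Ppl had 0.24 against the 3 rows upstream, and Scaf8 0.031 against the mean of the other rows. Rbbp6 had 0.027 with quality weights and 0.065 without both libraries numbered 2, and ran from -0.887 to 0.065 with a single library left out, positive only without ASA replicate 2. Rprd2 had -0.059 with summed reads of the other rows, -0.080 against the 3 rows upstream and -0.027 after centring. It ran from -0.033 to 0.074 with a single library left out, negative without replicate 1 of either group. Members not followed in this way turned too, such as Tet3 and Sema6c without ASA replicate 2. The cause of these changes was not tested. No paired analysis was possible because the replicate numbers come from the order of deposit and no label pairs the libraries. Depth limited rows with few reads, such as that of Ehhadh with 6 reads in ASA replicate 2, against a median of 1359 reads over members.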
